A study of Sus scrofa with 9 samples.

Results

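Ferroptosis and antioxidant defence genes were followed in the liver of Wujin pigs fed different amounts of iron. The 10 genes, chosen by name, were GPX4, SLC7A11, GCLC, GCLM, NQO1, TXNRD1, SRXN1, SOD1, SOD2 and CAT, out of 25918 genes in the table. Each was present once, and all 10 were among the 12584 genes that reached a mean of 0.5 FPKM (fragments per kilobase of transcript, scaled to the mapped fragments of the library) over the 9 libraries. Piglets of the Wujin breed entered the study at 35 days of age, were prefed for 5 days and then fed their diets for 30 days, in groups of 6, each pig housed alone. The low-iron group received the basal diet with 0 mg/kg of added iron, the control group the same diet with 100 mg/kg and the high-iron group with 200 mg/kg, added as iron glycinate. All groups thus shared the basal diet, which by the study's calculation held iron of its own, and differed in the iron added to it. Poly(A) RNA from the liver of 3 pigs per group was sequenced, 1 library per pig. Pigs are named here by group and by the number in their label, which were 2, 3 and 7 in the low-iron, 4, 5 and 6 in the control and 2, 7 and 8 in the high-iron group. The labels give no sex for these pigs, and the trial used males and females.

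Ferroptosis is a form of cell death driven by iron-dependent peroxidation of membrane lipids. The cystine importer SLC7A11 supplies cysteine for glutathione, whose rate-limiting step is catalysed by glutamate-cysteine ligase, made of the catalytic subunit GCLC and the modifier subunit GCLM, and the selenoenzyme GPX4 uses glutathione to reduce lipid peroxides. NQO1, TXNRD1, SRXN1, GCLC, GCLM and SLC7A11 are known targets of the transcription factor NRF2, while SOD1, SOD2 and CAT remove superoxide and hydrogen peroxide. The liver holds much of the iron of the body, and free iron can turn hydrogen peroxide into hydroxyl radicals.

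The genes lie on 9 chromosomes of Sscrofa11.1. GPX4 was at chr2:77321568-77323931 on the minus strand and encodes its selenocysteine in a TGA codon, which would otherwise end translation. TXNRD1, the cytosolic thioredoxin reductase, was at chr5:80170334-80213889 on the minus strand and also carries a selenocysteine, placed next to its end. The coding sequence around both codons is shown because it ties these antioxidant enzymes to selenium, with the selenocysteine codon in capitals. In GPX4 it was codon 73 of a protein of 197 residues (chr2:77322606-77322662, coding strand), and in TXNRD1 codon 498 of 499 residues (chr5:80172260-80172295, coding strand, running to the stop codon). Both were read from the RefSeq annotation of Sscrofa11.1.
GPX4: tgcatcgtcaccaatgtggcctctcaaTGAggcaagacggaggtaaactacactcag
TXNRD1: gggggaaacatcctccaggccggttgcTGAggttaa

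The antioxidant response element, through which NRF2 acts, has the core TGACNNNGC. This motif alone was searched on both strands of the 1000 bases upstream of each annotated start site. It occurred in 5 of the 10 genes (NQO1, GCLC, GCLM, GPX4 and SOD2) and in 6282 of 20633 such windows of the table, or 30.45%. The other known NRF2 targets among the 10 genes, SLC7A11, TXNRD1 and SRXN1, held no match. The matches of NQO1, GCLM and GCLC are shown, with 20 bases on each side and the motif in capitals, because these are the known NRF2 targets among the 10 genes that hold a match. All 4 are written along the plus strand of Sscrofa11.1, which is the strand of the 3 genes, and the second GCLC match lies on the opposite strand. The NQO1 match began 210 bases before the start site (chr6:17292732-17292780), that of GCLM 473 bases (chr4:123370705-123370753), and those of GCLC 182 bases (chr7:27209363-27209411) and 692 bases (chr7:27208853-27208901).
NQO1: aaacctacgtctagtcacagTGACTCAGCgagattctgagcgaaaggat
GCLM: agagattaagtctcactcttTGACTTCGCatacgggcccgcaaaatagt
GCLC first: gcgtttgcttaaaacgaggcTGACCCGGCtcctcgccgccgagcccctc
GCLC second: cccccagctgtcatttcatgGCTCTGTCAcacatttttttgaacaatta
A match describes the letters of a window and not a bound site.

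The libraries had 16235 to 17817 genes above 0 FPKM, and their 10 highest genes held 25.6% to 29.2% of all FPKM. The study reports reads per library, but the table holds no counts, so the reads behind a single value are unknown here. Precision rests on the spread between pigs within groups, which limma pools over the 3 groups and moderates over all tested genes. The summed level of hepatocyte markers was 69813 to 93724 FPKM over the 9 libraries, the highest of all marker lists in each group. Summed Kupffer cell and macrophage markers were 851 to 1082 FPKM in the high-iron, 554 to 779 in the control and 660 to 808 in the low-iron group, with 9 of 9 tested markers higher in high-iron than in control pigs and 6 of them at an unadjusted p under 0.05. Endothelial markers summed to 135 to 146 FPKM in the high-iron, 98.3 to 101.5 in the control and 94.6 to 140.4 in the low-iron group, and stellate cell and fibroblast markers to 129 to 264, 89.6 to 124.3 and 79.3 to 183.4 FPKM. T cell markers summed to 18.2 to 35.5 FPKM in the high-iron, 9.49 to 20.4 in the control and 11.5 to 15.9 in the low-iron group, with 5 of 5 tested markers higher in high-iron pigs than in either group. Erythroid markers summed to 478 to 2457 FPKM in the low-iron, 212 to 1452 in the control and 352 to 841 in the high-iron group, with 4 of 4 tested markers higher in low-iron pigs than in either group and none at an unadjusted p under 0.05. Of all tested genes 65.0% were higher in high-iron and 62.7% in low-iron than in control pigs, and 53.6% in high-iron than in low-iron pigs. An unadjusted p under 0.05 was reached by 5.59% of them in high-iron against control pigs. In bulk liver, fewer cells of a type and less RNA per cell cannot be told apart. The part of these cells in the results below was not tested.

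Among the 10 genes, CAT, which splits hydrogen peroxide, had the highest level per length at a mean of 2570 FPKM over the 9 libraries. It was followed by SOD1 at 456, SOD2 at 67.5, GPX4 at 62.3, GCLC at 34.8, TXNRD1 at 19.8, GCLM at 14.7, NQO1 at 8.51, SRXN1 at 4.70 and SLC7A11 at 1.04 FPKM. Within a library, SOD2 was above GPX4 in 5 of 9 pigs and NQO1 above SRXN1 in 8 of 9, and every other pair of neighbours kept this order in all 9. Over the 9 pigs the ranges of CAT and SOD1 overlapped with no other gene, and those of all lower neighbours overlapped. The spread between pigs was widest for SLC7A11, with a coefficient of variation of 82.3% over the 9 libraries and a 13.2-fold range, and narrowest for GCLM at 14.0%.

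**Figure D1:**
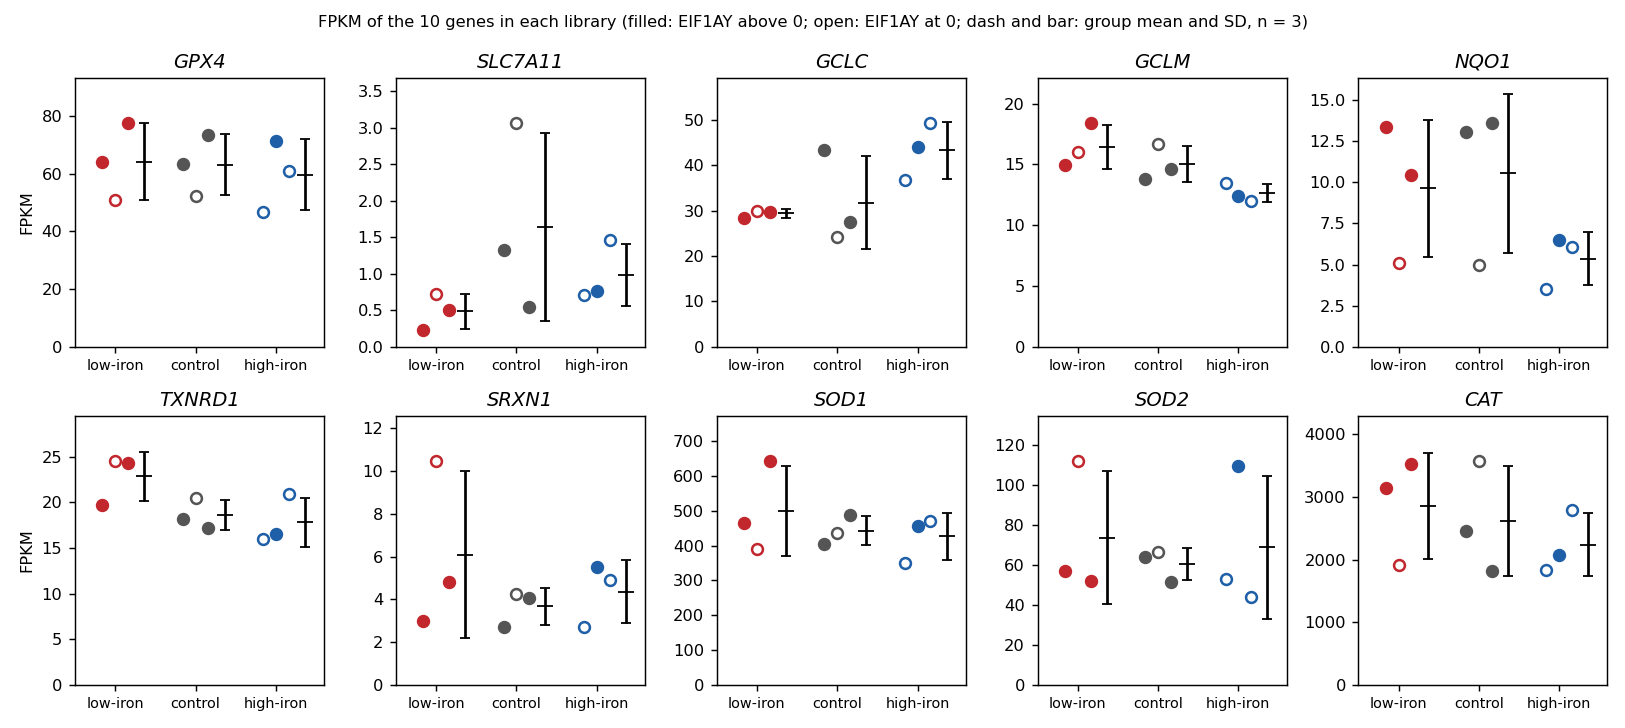
FPKM (linear axis) of the 10 genes in each of the 9 libraries, by diet group, with the group mean and SD (n = 3) to the right of the points. Filled points are libraries with the Y-linked gene EIF1AY above 0 FPKM and open points those with it at 0. GCLC of the high-iron pigs, at 36.7 to 49.2 FPKM, lies above all low-iron pigs, and GCLM, at 12.01 to 13.5 FPKM, below both other groups.

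Each comparison asks whether the amount of iron in the diet was accompanied by another level of these transcripts. Fold changes are on the log2(FPKM + 0.1) scale and come from limma, fitted over all 12584 genes and the 3 groups. In low-iron against control pigs, 7 of the 10 genes had a higher and 3 a lower mean log2 level. The median log2 fold change was 0.13 beside 0.08 for all tested genes, of which 62.7% were higher. Without low-iron pig 7 the 10 genes were 4 higher and 6 lower with a median of -0.05. SLC7A11 alone, 1 of 10, had an unadjusted p under 0.05, against 3.68% of all tested genes. It alone met the thresholds of the study, a fold change of at least 2 with that p, met by 0.882% of all tested genes. With 1 FPKM added before the log2 in place of 0.1, SLC7A11 fell short of that fold change. The ranges of the groups overlapped for all 10 genes, whereas 8.34% of all tested genes did not overlap.

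In high-iron against control pigs, 3 genes had a higher and 7 a lower mean. The median was -0.08 beside 0.10 for all tested genes, of which 65.0% were higher. None of the 10 had an unadjusted p under 0.05, against 5.59% of all tested genes, and so none met the thresholds that 1.57% of all genes met. GCLM was the 1 gene whose groups did not overlap, beside 10.9% of all tested genes. Median-of-ratios scaling moved the median of all tested genes from 0.10 to -0.03 in this comparison, and the counts of the 10 genes there were 2 higher and 8 lower. They were 5 and 5 with quantile normalization or with the Y-linked gene EIF1AY as a covariate, and 6 higher and 4 lower without high-iron pig 2 or without control pig 5.

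In high-iron against low-iron pigs, 2 genes (GCLC and SLC7A11) had a higher and 8 a lower mean. The median was -0.27 beside 0.03 for all tested genes, of which 53.6% were higher. Without high-iron pig 2 the 10 genes were 4 higher and 6 lower with a median of -0.05. GCLC and GCLM had an unadjusted p under 0.05 and groups that did not overlap, in opposite directions. That is 2 of 10 genes, against 7.15% of all tested genes by p and 13.2% by lack of overlap. No member reached the fold change of 2 with that p, which 1.54% of all tested genes did.

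After Benjamini-Hochberg adjustment over all tested genes in limma, none of the 10 genes reached an adjusted p under 0.05 in any comparison. The smallest were 0.99985 in low-iron against control, 0.895 in high-iron against control and 0.667 in high-iron against low-iron pigs, and only 0, 1 and 0 of all 12584 genes reached it. In the moderated F test of limma over the 3 groups, 5.55% of all tested genes and none of the 10 had an unadjusted p under 0.05, with the smallest for GCLC (0.0655, adjusted 0.907). In an exact permutation test of 3 against 3 pigs the smallest p possible is 0.1, so no single gene could pass 0.05 by it.

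**Figure D2:**
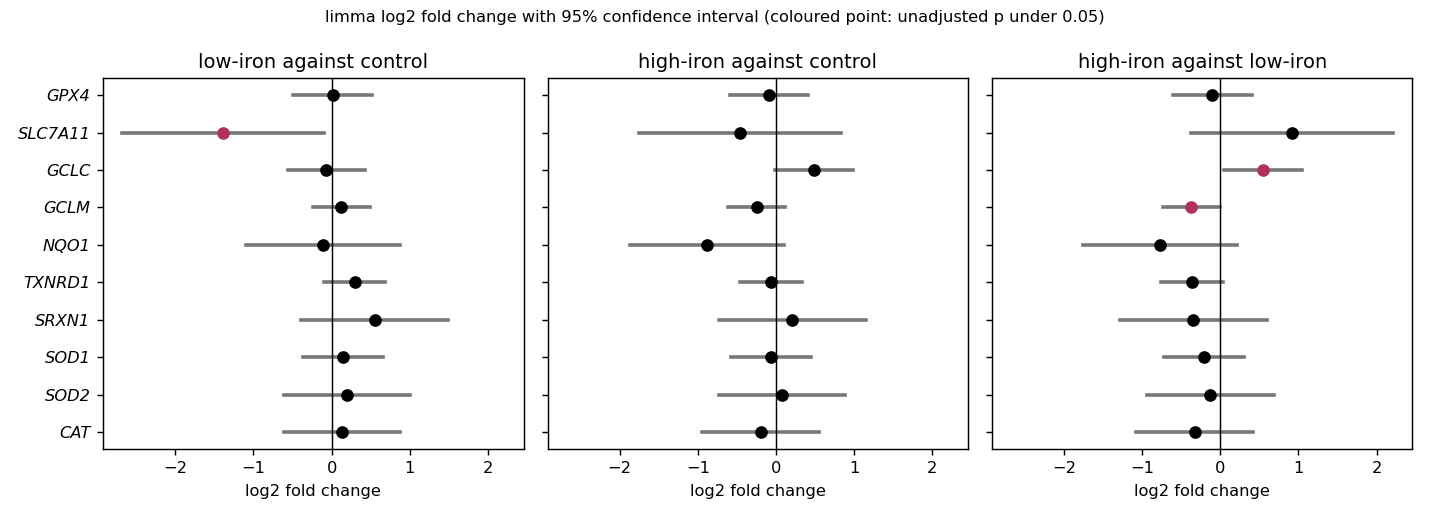
limma log2 fold change (points) with the 95% confidence interval (lines) of the 10 genes in the 3 comparisons, on log2(FPKM + 0.1), with 3 pigs per group. The coloured points have an unadjusted p under 0.05 and are SLC7A11 in low-iron against control and GCLC and GCLM in high-iron against low-iron pigs.

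SLC7A11, the cystine importer, was at chr8:88608083-88690589. Its level was 0.232, 0.721 and 0.499 FPKM in low-iron pigs 2, 3 and 7, 1.32, 3.06 and 0.547 FPKM in control pigs 4, 5 and 6, and 0.712, 0.771 and 1.47 FPKM in high-iron pigs 2, 7 and 8. Control pig 5 was far above the others, and control pig 6 was below low-iron pig 3. The low-iron mean of 0.484 FPKM lay under the filter value of 0.5 FPKM. A log2 fold change at such levels depends on the 0.1 FPKM added before the log2. With 1 FPKM added instead, SLC7A11 fell short of a 2-fold difference between low-iron and control pigs. The log2 fold change of low-iron against control pigs was -1.39 ± 0.58 (SE, n = 3 per group; limma, unadjusted p = 0.0380, adjusted p = 0.99985). Without control pig 5 it was -0.81 (limma, unadjusted p = 0.181), and without low-iron pig 2, low-iron pig 7 or control pig 4 the unadjusted p was also above 0.05, at 0.134, 0.0605 and 0.0752. High-iron pigs differed from control by -0.47 on the log2 scale, with a 95% interval of -1.76 to 0.83.

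GCLC and GCLM, the subunits of glutamate-cysteine ligase, differed in opposite directions between high-iron and low-iron pigs. GCLC (chr7:27209565-27253535) was at 28.3, 30.003 and 29.7 FPKM in the low-iron pigs, 43.4, 24.2 and 27.6 FPKM in the control pigs and 36.7, 43.9 and 49.2 FPKM in the high-iron pigs. The low-iron pigs were nearly alike, with an SD of 0.898 FPKM, and control pig 4 reached the level of the high-iron pigs. High-iron pigs differed from low-iron pigs by a log2 fold change of 0.55 ± 0.22 (SE; limma, unadjusted p = 0.0333, adjusted p = 0.667), with all 3 high-iron pigs above all 3 low-iron pigs, which gives the smallest exact permutation p of 0.1. Against control it was 0.48 ± 0.22 (limma, unadjusted p = 0.0553, adjusted p = 0.895). Without control pig 4 it was 0.73 (limma, unadjusted p = 0.00473). That fit lacks the 1 control pig that goes against the difference, so nothing is concluded from its p.

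GCLM (chr4:123371198-123390130) had the opposite order. Its level was 14.9, 16.0 and 18.4 FPKM in low-iron, 13.8, 16.7 and 14.6 FPKM in control and 13.5, 12.4 and 12.01 FPKM in high-iron pigs. All high-iron pigs were below all pigs of both other groups, which overlapped with each other. High-iron against low-iron pigs had a log2 fold change of -0.37 ± 0.16 (SE; limma, unadjusted p = 0.0459, adjusted p = 0.697), and against control it was -0.25 ± 0.16 (unadjusted p = 0.165, adjusted p = 0.932). Low-iron and control pigs differed by 0.13 with a 95% interval of -0.24 to 0.49. For both subunits the unadjusted p of high-iron against low-iron pigs lay above 0.05 without high-iron pig 7 (0.0705 for GCLC and 0.0938 for GCLM), high-iron pig 8 (0.114 and 0.122), low-iron pig 3 (0.0565 and 0.0685) or low-iron pig 7 (0.0616 and 0.152). For GCLC it was also above 0.05 without low-iron pig 2 (0.0785), and for GCLM without control pig 4 (0.0580) or control pig 6 (0.0540).

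The ratio of GCLC to GCLM, which does not depend on the scaling of a library, was chosen after the values were seen and is given without a test. It was 1.90, 1.88 and 1.62 in low-iron, 3.14, 1.45 and 1.89 in control and 2.73, 3.54 and 4.10 in high-iron pigs. The means were 1.80 ± 0.157, 2.16 ± 0.875 and 3.45 ± 0.690 (SD, n = 3). High-iron pigs lay above all low-iron pigs, and control pig 4 lay among them.

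**Figure D3:**
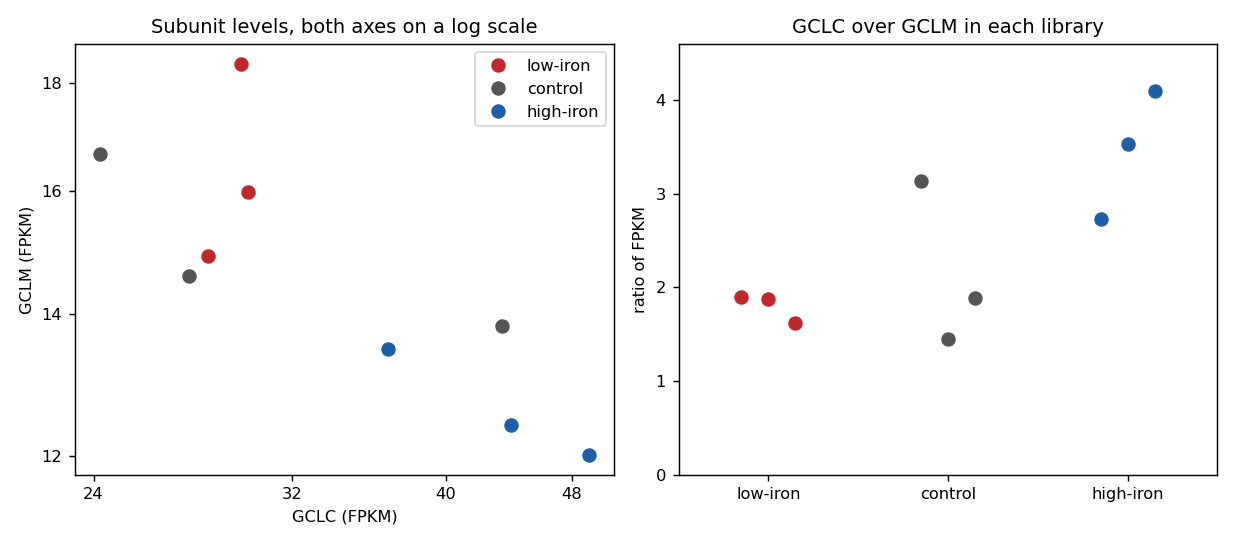
Left, FPKM of GCLM against GCLC in the 9 libraries, both on log axes, coloured by diet. Right, the ratio of both in each library on a linear axis. The 3 high-iron pigs combine the lowest GCLM levels with a GCLC level of 36.7 to 49.2 FPKM, and their ratios of 2.73 to 4.10 lie above the low-iron ratios of 1.62 to 1.90.

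GCLC and GCLM were negatively correlated over the 9 pigs (r = -0.82, exact permutation p = 0.00828, adjusted p = 0.0828; Spearman rho = -0.78, exact permutation p = 0.0172, adjusted p = 0.172). Adjustment was over the 10 pairs of GCLC, GCLM, NQO1, TXNRD1 and SRXN1, and no pair reached an adjusted p under 0.05. Without high-iron pigs 7 and 8, which were farthest from the median of GCLC, r was -0.61, and with each group centred on its own mean it was -0.60. TXNRD1 had r = 0.64 with GCLM (exact permutation p = 0.0637, adjusted p = 0.254; rho = 0.55, p = 0.133, adjusted p = 0.443). It had r = 0.61 with SRXN1 (exact permutation p = 0.0762, adjusted p = 0.254; rho = 0.58, p = 0.108, adjusted p = 0.443), which was 0.14 without low-iron pig 3 and high-iron pig 2. The other 7 pairs had r between -0.32 and 0.20. After median-of-ratios scaling or quantile normalization the GCLC and GCLM pair had r = -0.92 (exact permutation, adjusted p = 0.00356) and -0.83 (adjusted p = 0.0242). All permutations exchanged the pigs regardless of diet, so the p-values also reflect the differences between the groups.

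GPX4, the lipid peroxide reductase, was at 64.0, 50.8 and 77.5 FPKM in low-iron, 63.5, 52.3 and 73.5 FPKM in control and 46.8, 71.4 and 60.8 FPKM in high-iron pigs. The 3 groups overlapped throughout. The log2 fold change was 0.02 in low-iron against control pigs (95% interval -0.49 to 0.52) and -0.09 in high-iron against control pigs (-0.59 to 0.42), so that a change of 2-fold lay outside both intervals.

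NQO1, a quinone reductase at chr6:17292962-17302593, was at 13.3, 5.08 and 10.5 FPKM in low-iron, 13.1, 4.99 and 13.6 FPKM in control and 3.51, 6.52 and 6.07 FPKM in high-iron pigs. Each group with a high mean also held 1 pig, low-iron pig 3 or control pig 5, at the level of the high-iron pigs. The log2 fold change of high-iron against control pigs was -0.88 ± 0.45 (SE; limma, unadjusted p = 0.0754, adjusted p = 0.903) and of high-iron against low-iron pigs -0.77 ± 0.45 (unadjusted p = 0.112, adjusted p = 0.772). Over the 9 fits that each lacked 1 pig, the value against control ran from -1.35 without control pig 5 to -0.60 without high-iron pig 2, with an unadjusted p in limma from 0.00734 to 0.242. That against low-iron pigs ran from -1.17 without low-iron pig 3 to -0.49 without low-iron pig 2, with p from 0.0235 to 0.338. Low-iron and control pigs differed by -0.11, with a 95% interval of -1.09 to 0.88.

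The levels of NQO1 separated with EIF1AY, a gene of the Y chromosome, which is given here because the labels hold no sex. EIF1AY was at 15.0 to 26.5 FPKM in low-iron pigs 2 and 7, control pigs 4 and 6 and high-iron pig 7, and it was listed at 0 in low-iron pig 3, control pig 5 and high-iron pigs 2 and 8. NQO1 was at 6.52 to 13.6 FPKM in the 5 pigs with EIF1AY and at 3.51 to 6.07 FPKM in the 4 without. GPX4 was at 63.5 to 77.5 FPKM in the first and 46.8 to 60.8 FPKM in the second, also without overlap, while the other 8 genes overlapped. Over all tested genes, 3.75% did not overlap in this split, which was looked at after the values of NQO1 were seen.

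With the log2 level of EIF1AY in the limma fit, its coefficient had an unadjusted p of 0.00190 for NQO1, 0.0134 for GPX4 and 0.0468 for SLC7A11, that of SLC7A11 being negative. Across all tested genes 10.7% had such a p under 0.05, the adjusted p of the 3 genes was 0.388, 0.388 and 0.459, and 8 genes in all had an adjusted p under 0.05. In that fit the log2 fold change of NQO1 was -0.58 in high-iron against control pigs (unadjusted p = 0.0686) in place of -0.88. The split was 2 of 3 pigs with EIF1AY in the low-iron and control groups and 1 of 3 in the high-iron group, so diet and this split were not balanced.

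**Figure D4:**
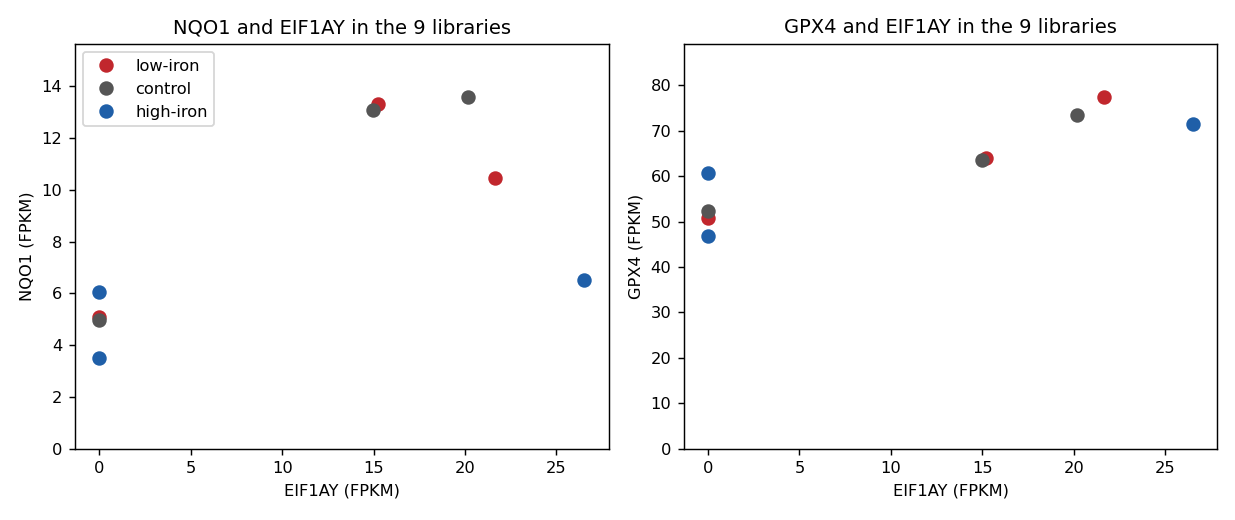
FPKM of NQO1 (left) and GPX4 (right) against FPKM of EIF1AY in the 9 libraries, on linear axes, coloured by diet. The 5 libraries with EIF1AY above 0 lie above the 4 with EIF1AY at 0 for both genes, with NQO1 of high-iron pig 7, at 6.52 FPKM, closest to the others.

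TXNRD1, which keeps thioredoxin reduced, was at 19.8, 24.5 and 24.3 FPKM in low-iron, 18.1, 20.4 and 17.2 FPKM in control and 16.0, 16.6 and 20.9 FPKM in high-iron pigs. Low-iron pigs 3 and 7 were above every pig of the other groups, and low-iron pig 2 was not. The log2 fold change was 0.29 ± 0.18 (SE; limma, unadjusted p = 0.128) in low-iron against control pigs and -0.36 ± 0.18 (unadjusted p = 0.0683, adjusted p = 0.727) in high-iron against low-iron pigs. With median-of-ratios scaling the latter was -0.41 (limma, unadjusted p = 0.0350).

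SRXN1, or sulfiredoxin, restores overoxidised peroxiredoxins and lies at chr17:34582377-34589308. It was at 2.98, 10.5 and 4.80 FPKM in low-iron, 2.69, 4.24 and 4.07 FPKM in control and 2.69, 5.49 and 4.88 FPKM in high-iron pigs. Low-iron pig 3 stood far above all others, and the groups overlapped. Low-iron against control pigs had a log2 fold change of 0.55 ± 0.42 (SE; limma, unadjusted p = 0.221, adjusted p = 0.99985).

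The 3 enzymes that remove superoxide and hydrogen peroxide did not pass the test in any comparison. SOD1, the cytosolic superoxide dismutase at chr13:195326573-195335273, was at 465, 389 and 643 FPKM in low-iron, 404, 437 and 488 FPKM in control and 349, 458 and 472 FPKM in high-iron pigs. CAT (chr2:26493664-26533881) was at 3148, 1906 and 3524 FPKM in low-iron, 2456, 3572 and 1823 FPKM in control and 1838, 2069 and 2799 FPKM in high-iron pigs. Both overlapped between all groups, with log2 fold changes of -0.33 to 0.14 and unadjusted p of 0.349 to 0.784 in limma.

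SOD2, the mitochondrial superoxide dismutase at chr1:7679352-7689564, was at 57.0, 111.7 and 51.7 FPKM in low-iron, 63.7, 66.4 and 51.1 FPKM in control and 52.8, 109.4 and 43.8 FPKM in high-iron pigs. Low-iron pig 3 and high-iron pig 7 were at nearly the same high level, and the other 7 pigs lay between 43.8 and 66.4 FPKM. Its log2 fold change was 0.20 in low-iron against control pigs (95% interval -0.61 to 1.01) and 0.07 in high-iron against control pigs (-0.73 to 0.88).

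Gene lists around these pathways, which overlap and include the 10 genes, are described by counts and medians. Of all tested genes 62.7% were higher in low-iron and 65.0% in high-iron than in control pigs, and 53.6% in high-iron than in low-iron pigs. These shares are to be set beside all list counts below. Some lists mix genes of opposite action, such as KEAP1 and BACH1 beside the targets of NRF2, or TFRC beside GPX4. A count of higher and lower genes therefore gives no direction for a pathway. Median-of-ratios scaling shifted the counts against control toward lower, to 13 higher and 13 lower selenoprotein genes in low-iron pigs and to 2 higher and 11 lower glutathione peroxidases and transferases in high-iron pigs, and left 22 higher and 9 lower NRF2 genes in low-iron pigs. Quantile normalization gave 13 and 13, 5 and 8, and 21 and 10 for the same lists. Of the NRF2 pathway and its targets, 31 of 33 listed genes were tested. In low-iron against control pigs 25 were higher and 6 lower, with a median log2 fold change of 0.16 beside 0.08 for all tested genes, of which 62.7% were higher. HMOX1, or heme oxygenase 1, MAFG, a small MAF partner of NRF2, and SQSTM1, the autophagy receptor p62, were higher at an unadjusted p under 0.05, and SLC7A11 was lower. HMOX1 was at 107.6, 101.6 and 127.3 FPKM in low-iron and 56.7, 58.7 and 107.4 FPKM in control pigs, and the log2 fold change was 0.65 ± 0.29 (SE; limma, unadjusted p = 0.0454, adjusted p = 0.99985). MAFG and SQSTM1 had log2 fold changes of 0.80 (unadjusted p = 0.0132) and 0.43 (unadjusted p = 0.0359) in limma. Their low-iron pigs were all above their control pigs, which makes 2 of the 31 genes without overlap, beside 8.34% of all tested genes. In high-iron against control pigs MAFG was at 0.56 (limma, unadjusted p = 0.0631) and SQSTM1 at -0.03. The calls by p in low-iron against control pigs were 4 of 31 genes with SLC7A11, beside 3.68% of all tested genes. They became 2 with median-of-ratios scaling or quantile normalization and 0 without low-iron pig 7, when 24 genes were still higher and 7 lower.

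In high-iron against low-iron pigs 8 of the 31 genes were higher and 23 lower, with a median of -0.16 beside 0.03 for all tested genes, of which 53.6% were higher. With median-of-ratios scaling the counts were the same, 8 and 23, and without high-iron pig 2 they were 13 and 18 with a median of -0.04. SQSTM1 (-0.45, unadjusted p = 0.0272 in limma) and GCLM were lower and GCLC higher at p under 0.05. In high-iron against control pigs 19 were higher and 12 lower, and 16 and 15 with either scaling. NFE2L2, which encodes NRF2, had log2 fold changes against control of 0.16 in low-iron and 0.38 in high-iron pigs (unadjusted p = 0.395 and 0.0694 in limma), KEAP1, its inhibitor, 0.09 and -0.01, and BACH1, a repressor of the same sites, 0.26 and 0.15.

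Of the glutathione synthesis and recycling genes 21 of 22 were tested. Against control, 14 were higher and 7 lower in low-iron pigs, and 9 were higher and 12 lower in high-iron pigs. Without low-iron pig 7 the former were 11 and 10, and without high-iron pig 2 the latter were 13 and 8. At an unadjusted p under 0.05, SLC7A11 was lower in low-iron pigs, and GGT1, which breaks down extracellular glutathione, was higher in high-iron pigs (0.78, unadjusted p = 0.0176 in limma). CBS, of the pathway from methionine to cysteine, was lower in high-iron than in low-iron pigs (-0.53, unadjusted p = 0.0258), as was GCLM, and GCLC was higher, while 9 genes in all were higher and 12 lower. GSR, glutathione reductase, had log2 fold changes against control of 0.09 and 0.17, and SLC3A2, the partner chain of SLC7A11, of 0.10 and -0.43.

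Of 28 tested ferroptosis regulators out of 30, 18 were higher and 10 lower in low-iron against control pigs, beside 62.7% higher of all tested genes. They were 14 and 14 with median-of-ratios scaling or without low-iron pig 7, and 13 and 15 with quantile normalization. TFRC, the transferrin receptor that brings iron into cells, was at 87.9, 129.8 and 28.6 FPKM in low-iron, 6.51, 17.0 and 7.51 FPKM in control and 40.6, 15.9 and 18.5 FPKM in high-iron pigs. Its log2 fold change was 2.86 ± 0.56 (SE; limma, unadjusted p = 0.000412) in low-iron and 1.27 ± 0.56 (unadjusted p = 0.0466) in high-iron against control pigs. Erythroid markers, as given above, were also higher in low-iron than in control pigs, with overlapping sums. Of these, HBB was at 1409, 470 and 2433 FPKM in low-iron pigs 2, 3 and 7. In control pigs 4, 5 and 6 it was at 209, 671 and 1434 FPKM. The part of erythroid cells in the TFRC levels was not tested. MBOAT1, a phospholipid-remodelling acyltransferase, was also higher in low-iron than in control pigs (0.57, limma, unadjusted p = 0.0405). In high-iron against control pigs MBOAT1 was at 0.53 (limma, unadjusted p = 0.0533).

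In high-iron against control pigs 16 of these regulators were higher and 12 lower, and in high-iron against low-iron pigs 9 were higher and 19 lower. With median-of-ratios scaling the former were 12 and 16, and without high-iron pig 2 the latter were 14 and 14. DHODH, a mitochondrial enzyme of pyrimidine synthesis that can reduce ubiquinone, was lower in high-iron than in control pigs (-1.33, unadjusted p = 0.0219 in limma) and than in low-iron pigs (-1.35, unadjusted p = 0.0207). DHODH was at 6.68, 1.43 and 4.22 FPKM in high-iron and 11.7, 10.8 and 5.47 FPKM in control pigs, with high-iron pig 2 above control pig 6. TFRC was also lower in high-iron than in low-iron pigs (-1.59, limma, unadjusted p = 0.0174). ACSL4, which prepares polyunsaturated fatty acids for membrane lipids, had log2 fold changes against control of 0.41 and 0.64, and AIFM2, or FSP1, of -0.12 and -0.15, in low-iron and high-iron pigs.

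The thioredoxin and peroxiredoxin system had 15 of 15 genes tested, with 8 higher and 7 lower in low-iron and 7 higher and 8 lower in high-iron pigs against control. None had an unadjusted p under 0.05 in these 2 comparisons. Between high-iron and low-iron pigs 5 were higher and 10 lower, and 9 higher and 6 lower without high-iron pig 2. There TXNIP, an inhibitor of thioredoxin (0.43, unadjusted p = 0.0415 in limma), and SESN1, a sestrin (0.49, unadjusted p = 0.0486), were higher, and TXNRD2, the mitochondrial thioredoxin reductase (-0.67, unadjusted p = 0.0191), was lower. TXN itself differed from control by 0.25 in low-iron and 0.16 in high-iron pigs.

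Of 27 selenoprotein and selenocysteine synthesis genes 26 were tested, with 18 higher and 8 lower in low-iron pigs and 10 higher and 16 lower in high-iron pigs against control. The latter were 4 and 22 with median-of-ratios scaling, 6 and 20 with quantile normalization and 15 and 11 without high-iron pig 2. The former were 14 and 12 without low-iron pig 7 and 13 and 13 without control pig 5. In high-iron against low-iron pigs 6 were higher and 20 lower, with a median of -0.17, and without high-iron pig 2 the counts were 12 and 14. SECISBP2, which directs selenocysteine insertion, was higher in low-iron than in control pigs (0.46, unadjusted p = 0.0332 in limma) and lower in high-iron than in low-iron pigs (-0.46, unadjusted p = 0.0358). SELENOS (-0.65, unadjusted p = 0.0474) and TXNRD2 were also lower, and SELENON was higher in high-iron pigs (0.52 against both groups, unadjusted p = 0.0341 and 0.0363).

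Of 18 glutathione peroxidases and transferases 13 were tested, with 9 higher and 4 lower in low-iron and 7 higher and 6 lower in high-iron pigs against control, and 3 higher and 10 lower in high-iron against low-iron pigs. The first of these became 6 and 7 with median-of-ratios scaling or without control pig 4, and 4 and 9 without low-iron pig 7. The last became 7 and 6 without low-iron pig 7 or without high-iron pig 2. GPX7, a peroxidase of the endoplasmic reticulum, was higher in high-iron than in control pigs (1.25, unadjusted p = 0.0202 in limma) at a mean of 1.39 and 0.474 FPKM. GPX1, the abundant cytosolic glutathione peroxidase, had log2 fold changes of -0.03 in low-iron and -0.38 in high-iron pigs against control. The 5 genes of the superoxide dismutase and catalase list were all higher in low-iron than in control and all lower in high-iron than in low-iron pigs, none at an unadjusted p under 0.05, and 3 were higher and 2 lower in high-iron than in control pigs. Without low-iron pig 7, 3 were higher and 2 lower in low-iron than in control pigs. Without high-iron pig 2, 2 of them were higher and 3 lower than in low-iron pigs.

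**Figure D5:**
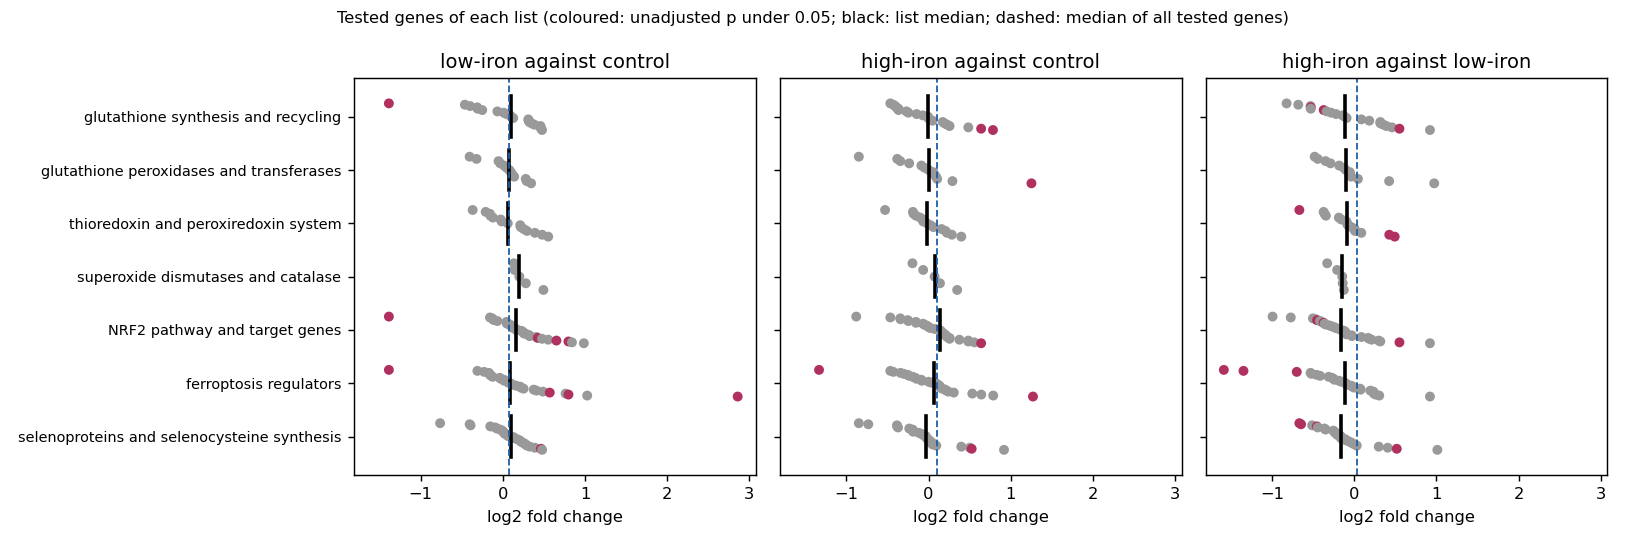
limma log2 fold change of every tested gene of the 7 lists in the 3 comparisons. Coloured points have an unadjusted p under 0.05, the black bar is the median of a list and the dashed line the median of all 12584 tested genes (0.08, 0.10 and 0.03). In high-iron against low-iron pigs all 7 medians lie below the dashed line, from -0.17 to -0.09.

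The genes whose log2 levels were most like those of each member over the 9 libraries are given as a description. They come from 11124 tested genes with a symbol and share libraries and scaling with the member. The share of these genes with an r over 0.9, the member itself included, ran from 0.018% for SLC7A11 to 0.953% for GPX4. The 2 genes named per member were picked for the highest r, so their r is no test. For GCLC they were SOS2 (r = 0.97) and MINK1 (0.97), for GCLM RPP40 (0.95) and CRBN (0.95) and for SLC7A11 SLC38A2 (0.92), a neutral amino acid transporter, and SUV39H2 (0.89). For NQO1 they were HPD (0.97) and GPT2 (0.96), 2 enzymes of amino acid catabolism, and for GPX4 CRAT (0.98) and RPL30 (0.98). For TXNRD1 they were ACSM2B (0.94) and TBX3 (0.93) and for SRXN1 RHOB (0.98) and FAM219A (0.95). For SOD1 they were FKBP8 (0.95) and SERF2 (0.95), for SOD2 A2M (0.94), an acute phase protein in some species, and TMEM52B (0.92), and for CAT HSD3B1 (0.97) and WIPI1 (0.96).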

How the data were processed

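Liver RNA of 9 pigs was measured, 3 per diet. The values deposited are FPKM, 1 column per library, which the authors obtained by HISAT2 alignment to Sscrofa11.1 and StringTie assembly. Scaling between libraries beyond FPKM is not given in the sources used here. Numbered genes were read as the serial numbers of genes in the RefSeq annotation (release 106) of that build. Read so, 20660 of 20660 are protein-coding, and 15031 with the numbering shifted by 1.

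Genes with a mean of at least 0.5 FPKM were tested on log2(FPKM + 0.1) with limma 3.58.1 in R 4.3.3, in 1 fit of the 3 groups with empirical Bayes moderation and trend (6 residual degrees of freedom). Adjusted p-values are Benjamini-Hochberg over all tested genes. The test was checked on simulated data. Single genes and correlations had exact two-sided permutation tests in Python 3.11.15 with scipy 1.17.1. The study's thresholds, 2-fold or more with an unadjusted p under 0.05, were used for calls. No count model was used, because the table holds FPKM. Pigs were separate animals, housed singly.

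Named are the 10 genes, list genes with an unadjusted p under 0.05 in a comparison, NFE2L2, KEAP1, BACH1, HMOX1, TXN, GSR, GPX1, SLC3A2, ACSL4 and AIFM2, and the 2 genes most like each of the 10. EIF1AY falls outside this rule. Some genes under this rule are not reported here. The genes, lists and tests were chosen with earlier results of these data known. Alternatives were a pseudocount of 1, no filter, median-of-ratios scaling, quantile normalization, 2 groups in the fit, EIF1AY as a covariate, the animal number as a block and each library left out.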

Additional observations from a re-analysis of the deposited data

How the results depend on the processing

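With a pseudocount of 1, the genes meeting the fold change and p thresholds numbered 34 in low-iron against control, 74 in high-iron against control and 67 in high-iron against low-iron pigs, in place of 111, 197 and 194, and without a filter they numbered 331, 504 and 458. Of the main calls 75, 160 and 127 were higher, against 51 of 98, 94 of 151 and 105 of 185 with median-of-ratios scaling and 52 of 110, 82 of 141 and 91 of 183 with quantile normalization. Leaving out 1 library gave 109 to 211, 190 to 298 and 188 to 332 calls. Of the 10 genes, 0 to 1, 0 to 1 and 0 to 2 then had an unadjusted p under 0.05 in limma, and 0 to 1 in the F test over the 3 groups. That number was 1 in high-iron against control pigs with median-of-ratios scaling (NQO1), quantile normalization (NQO1) and the EIF1AY covariate (GCLC), 1 in high-iron against low-iron pigs with quantile normalization or a fit of those 2 groups (GCLC), 3 there without a filter, with median-of-ratios scaling or with the EIF1AY covariate (GCLC, GCLM and TXNRD1), 0 in low-iron against control pigs in a fit of those 2 groups, and 1 in the F test with quantile normalization. The number of correlated pairs with an adjusted p under 0.05 was 1 with either scaling and 0 to 1 with 1 library left out.

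Other alternatives turned directions as follows. In low-iron against control pigs GPX4 was at -0.067 with median-of-ratios scaling and -0.075 with quantile normalization. In high-iron against control pigs quantile normalization gave 0.040 for SOD1 and 0.021 for CAT, median-of-ratios scaling gave -0.055 for SOD2, and the EIF1AY covariate gave 0.041 for GPX4 and 0.0057 for SOD1. In high-iron against low-iron pigs the covariate gave 0.028 for GPX4. The correlation of NQO1 with TXNRD1 was -0.11 with quantile normalization.

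With 1 library left out, log2 fold changes of low-iron against control pigs ran from -0.13 to 0.17 for GPX4, -0.24 to 0.18 for GCLC, -0.57 to 0.29 for NQO1, -0.055 to 0.31 for SOD1, -0.15 to 0.41 for SOD2 and -0.10 to 0.40 for CAT. Those of high-iron against control pigs ran from -0.23 to 0.077 for GPX4, -1.04 to 0.11 for SLC7A11, -0.19 to 0.0048 for TXNRD1, -0.14 to 0.072 for SOD1, -0.32 to 0.34 for SOD2 and -0.43 to 0.056 for CAT. Those of high-iron against low-iron pigs ran from -0.26 to 0.062 for GPX4, -0.75 to 0.13 for SRXN1 and -0.52 to 0.22 for SOD2. Correlations ran from -0.20 to 0.071 for GCLC and SRXN1, -0.35 to 0.24 for NQO1 and TXNRD1 and -0.34 to 0.0096 for GCLC and NQO1. The causes of these shifts were not tested.

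Low-iron and high-iron pigs share the numbers 2 and 7, but they are different animals, and the deviations of same-numbered pigs had correlations of 0.02 and 0.02. With the number as a replicate block, 460 genes were called in the 6 libraries of these groups. The same libraries gave 209 without the block, and the fit of all 9 gave 194. Low-iron pig 3 and high-iron pig 8 had no same-numbered partner, so the blocked differences rested on pigs 2 and 7 of each group. Nothing is concluded from these counts or from the p-values of the blocked fit. There 1 of the 10 genes had a p under 0.05 in limma (NQO1, -1.29, unadjusted p = 0.0122). In that fit SRXN1 was at 0.023 and SOD2 at 0.48, GCLC at 0.47 (limma, unadjusted p = 0.0784) and GCLM at -0.35 (unadjusted p = 0.187).

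Among all log2 fold changes of the 10 genes under the alternatives, 389 kept direction and side of the p threshold, 15 came under it, 20 went above it and 36 turned. With 3 pigs per group and no counts, any difference within a stated interval remained compatible with the data.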
